A study of Homo sapiens with 9 samples.

Results

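The genes described here are 10 intermediate filament genes, 9 keratins and vimentin, chosen by symbol out of the 57905 genes of a count table. KRT8, KRT18, KRT19 and KRT7 are keratins of simple, single-layered epithelium. KRT5, KRT14, KRT17, KRT6A and KRT13 are keratins of basal and stratified squamous epithelium, and VIM encodes vimentin, the filament protein of mesenchymal cells. All 10 symbols matched 1 Ensembl gene each. RNA was sequenced from KYSE180 cells, established from a human esophageal tumour, labelled as squamous cell carcinoma and described in the title as deficient in KDM6A, in 9 poly(A) libraries. The control line shluc carries a control hairpin, and shEZH2#1 and shEZH2#3 carry hairpins against EZH2, the methyltransferase that places the repressive mark on lysine 27 of histone H3. Each group has 3 libraries, and all 9, controls included, received 6 Gy of ionizing radiation. An unirradiated culture or a KDM6A-proficient line was not analysed here, so nothing below separates the hairpins from the radiation or from the KDM6A background. The genotype field calls the control WT and both hairpin lines an EZH2 knockout, whereas the titles name hairpins. The labels do not say whether each line is 1 clone or a pool, nor whether replicates are separate cultures, so the spread between libraries may be technical.

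Keratins assemble as obligate pairs of a type II (basic) and a type I (acidic) protein. KRT8 (type II) pairs with KRT18 in simple epithelia, where KRT19 (type I) and KRT7 (type II) mark ductal and glandular cells. KRT5 (type II) pairs with KRT14 (type I) in the basal layer of stratified epithelium such as normal esophagus, and KRT13 (type I) marks its upper, differentiating layers. KRT6A (type II) and KRT17 (type I) are induced in wounded or hyperproliferative epithelium. Vimentin is a type III filament that forms homopolymers; it is high in fibroblasts and in carcinoma cells that have taken on mesenchymal features.

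Many keratins have near copies elsewhere in the genome, which bears on how reads can be assigned. So 2 pairs are shown here over a 60-base coding stretch of each member and the matching stretch of a close relative. In GENCODE 29 transcripts (GRCh38), KRT8 is transcribed from the minus strand at chr12:52897187-52949954. Its coding sequence is 95.1% identical to the transcript of KRT8P45 over the 1450 bases aligned. KRT8P45 is a processed pseudogene at chr1:157073257-157074703 (plus strand). The stretch covers coding bases 9 to 68 of KRT8, the bases that differ are in capitals, and the sequences run 5′ to 3′.
KRT8: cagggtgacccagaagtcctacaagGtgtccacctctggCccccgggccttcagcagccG
KRT8P45: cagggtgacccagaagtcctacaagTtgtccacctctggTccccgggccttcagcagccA

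KRT14, on the minus strand at chr17:41582279-41586921, is 89.3% identical to KRT16, its neighbour at chr17:41609778-41615899 (minus strand), over the 1296 coding bases aligned. Capitals again mark the 6 bases that differ, here in coding bases 475 to 534 of KRT14.
KRT14: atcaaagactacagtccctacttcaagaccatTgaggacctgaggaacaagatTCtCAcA
KRT16: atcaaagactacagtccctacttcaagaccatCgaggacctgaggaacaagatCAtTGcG

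Of all 100-base windows in its principal transcript, 18.2% occurred unchanged in another gene's transcript for KRT6A, 6% for KRT14, 5.9% for KRT8, 1.4% for KRT5 and 0.3% for KRT17. The share was 0 for KRT18, KRT19, KRT7, KRT13 and VIM. Over 50-base windows it was 39.1% for KRT6A, 32.7% for KRT8, 31.8% for KRT18, 23.8% for KRT14 and 16% for KRT17, and at most 4% for the other members. How reads with more than 1 place were counted is not stated in the labels used here, so the counts of these 5 genes are uncertain by what their copies took or gave. The KRT8 pseudogenes together held between 2.02% and 2.99% of the KRT8 count, the highest share falling in shEZH2#3 library 1, and those of KRT18 between 0.0298% and 0.331% of the KRT18 count. KRT8 and KRT18 also overlap on opposite strands at the 5′ end of the annotated KRT8 gene (KRT18: plus strand, chr12:52948871-52952901). The libraries mark strand, but whether the counting used it is not stated in the labels either.

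The 9 libraries held between 14958011 and 21152006 counts, and 1 count corresponded to 0.0398 to 0.0734 CPM, the usual unit of counts scaled to library size, here with library sizes adjusted by the trimmed mean of M values (TMM). EZH2 itself stood at 18.4 to 20.1 CPM in the shluc libraries and at 7.27 to 11.5 in the 6 hairpin libraries: RNA of the targeted gene was lower but present. Its log2 fold change was −0.94 (edgeR adjusted p = 0.00163) with shEZH2#1 and −0.96 (adjusted p = 0.000433) with shEZH2#3. Gene GC content moved with the groups: the rank correlation, over tested genes, between GC content and a library's deviation from the mean log2 CPM ran from −0.69 to −0.39 in the control, from −0.25 to 0.25 under shEZH2#1 and from 0.37 to 0.64 under shEZH2#3. All 10 members are GC-rich, with 54.1% (VIM) to 62.9% (KRT7) GC in their principal transcripts. The changes of the members are therefore also given with an offset for GC content and length. So are the counts of the gene lists and the changes of many other genes named. With the offset the change of EZH2 was smaller, −0.73 (edgeR adjusted p = 0.00422) with shEZH2#1 and −0.54 (adjusted p = 0.0162) with shEZH2#3. Whether the gradient is technical was not tested. Within their groups shluc library 2 (the largest TMM factor, 1.33) and shEZH2#3 library 1 (7.6% mitochondrial counts and 18.55% of nonzero values with decimals) stood apart. Without both, the same numbers of members passed the test in each hairpin comparison with shluc, 2 with shEZH2#1 and 3 with shEZH2#3.

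Among the members, KRT8, KRT18, KRT7 and KRT17 dominated the RNA in every library. Per kilobase of exon, the control libraries held 933 ± 135 CPM of KRT18 (SD, n = 3) and 654 ± 84.7 of KRT8. KRT7 followed at 413 ± 68.8 and KRT17 at 372 ± 57.8 CPM per kb, a pair of neighbours whose spreads overlap. VIM stood at 92.5 ± 4.7 CPM per kb, KRT19 at 3.01 ± 1.23 and KRT5 at 0.128 ± 0.0285. KRT6A (0.0368 ± 0.0263 CPM per kb), KRT14 (0.0321 ± 0.00999) and KRT13 (0.0146 ± 0.0138) lay at the bottom with overlapping spreads. Among 52338 genes ordered by this per-length level in the control, KRT18 ranked 30, KRT8 46, KRT7 66, KRT17 87 and VIM 398, against 5587 for KRT19 and 13028 for KRT5. The order of KRT8 and KRT18 depends on the length used: with the principal transcript, chosen after the data were seen because the KRT8 exons include upstream starts, KRT8 stood at 2120 and KRT18 at 1920 CPM per kb.

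**Figure D1:**
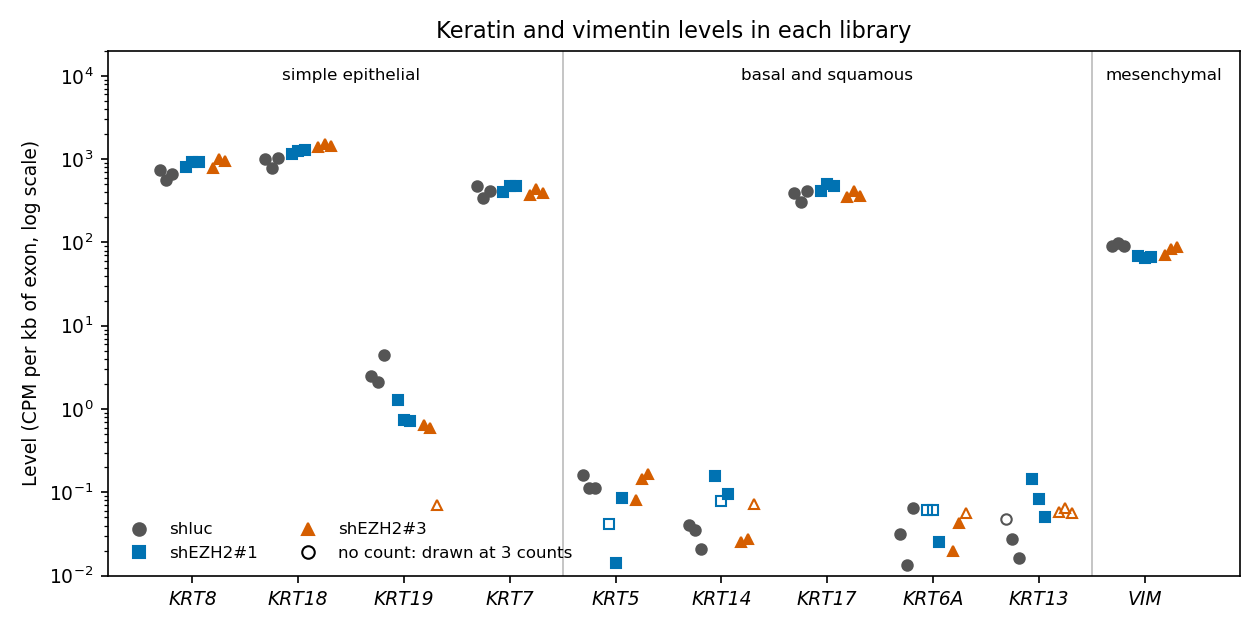
Level of each of the 10 filament genes in the 9 libraries, in CPM per kb of exon on a log axis, with 1 symbol per library and open symbols for libraries without a count, drawn at the value of 3 counts. Libraries with fewer than 3 counts but not 0 are drawn at their own values, so an open symbol can lie above a filled one. KRT8, KRT18, KRT7, KRT17 and VIM form an upper band in all groups, KRT19 lies between 3.01 (mean of shluc) and 0.408 (mean of shEZH2#3), and KRT5, KRT14, KRT6A and KRT13 lie at or near the level of single counts.

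KRT8, KRT18, KRT7 and KRT17 together made up 96.9% to 97.6% of all keratin RNA per kilobase of exon in each library, counted over 26 type II and 29 type I keratins. Summed by type, the ratio of type II to type I keratin RNA per kilobase of exon was 0.92, 0.87 and 0.78 in the control, 0.8, 0.82 and 0.82 under shEZH2#1 and 0.69, 0.8 and 0.79 under shEZH2#3. The groups overlapped, and with principal transcript lengths the ratio ran from 0.97 to 1.27.

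Set against its label, the line held little of the basal squamous pair KRT5 and KRT14. The basal keratin KRT5 had 0 to 15 counts and KRT14 0 to 6 counts in any library. TP63, the master factor of stratified epithelium, stood at 0.11 to 1.03 CPM. SOX2, the desmosomal cadherins DSG3 and DSC3 and the plakophilin PKP1 reached at most 0.144, 0.0958, 0.0797 and 0.239 CPM. The 8 squamous markers summed to 5.86 to 8.95 CPM in the control, 12 to 13.2 under shEZH2#1 and 3.53 to 7.83 under shEZH2#3, and most of each sum was the calcium-binding protein gene S100A2 (6.17 ± 1.76, 11.4 ± 0.937 and 4.86 ± 2.25 CPM; SD, n = 3). Other genes of squamous and stratified epithelium were present: 18 squamous factors, led by NOTCH1, TFAP2A and KLF5, summed to 203 to 238 CPM in the control, and the junction genes PKP3, DSP and EVPL averaged 304, 88.4 and 74.3 CPM. Of 12 factors listed as columnar 7 had enough counts to be tested, and GATA4, CDX1, CDX2, FOXA2 and FOXA3 did not. ELF3, most of the summed CPM of this list, averaged 332 CPM in the control. HNF4A, a factor of liver and gut epithelium, averaged 10.3 CPM there. Whether ELF3 is particular to columnar epithelium was not tested. The intestinal markers MUC2 (a secreted mucin, 2.11 ± 0.371 CPM; SD, n = 3) and VIL1 (villin, 1.55 ± 0.446) were low. The labelled squamous type thus lacked its defining keratin pair and TP63 at more than trace level, while other genes of that epithelium, KRT17 among them, were present. No other cell type is named from these values.

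**Figure D2:**
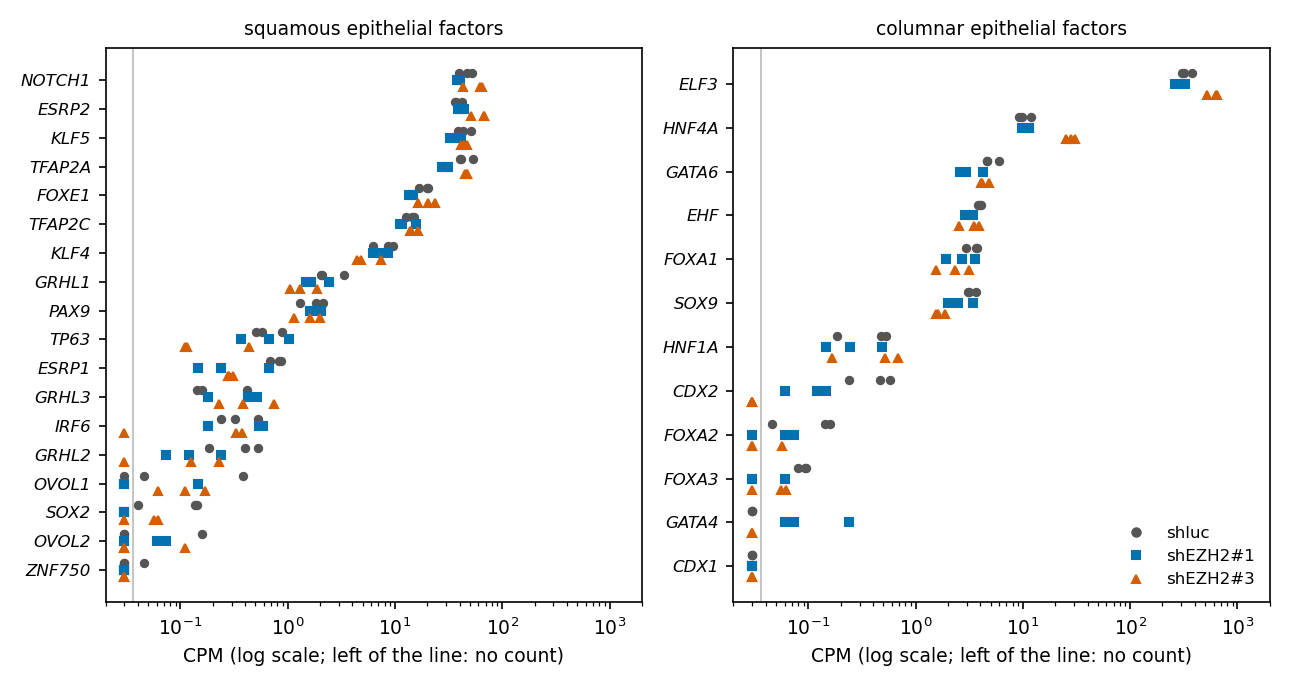
CPM, on a log axis, of 18 transcription and splicing factors listed as squamous (left) and 12 factors listed as columnar (right), with 1 symbol per library. Symbols left of the vertical line had no count. TP63 and SOX2 sit at or below 1.03 CPM in all libraries, whereas ELF3 is the most abundant factor of either panel, and ELF3 and HNF4A are highest in the 3 shEZH2#3 libraries.

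With 3 libraries a group, 7 of the 10 members had enough counts for the edgeR quasi-likelihood test; KRT14, KRT6A and KRT13 did not. With shEZH2#1, 2 of the 7 were lower than in the control (KRT19 and VIM) and 0 were higher by edgeR, where 19% of the 13252 tested genes passed, 11.2% higher and 7.89% lower. KRT8 and KRT18 were the 2 members that were higher at an unadjusted p below 0.05; DESeq2 called both and limma-voom neither. With shEZH2#3, 2 were higher (KRT8 and KRT18) and 1 was lower (KRT19), where 44.2% of the tested genes passed, 24.4% higher and 19.8% lower. These shares, 2 of 7 and 3 of 7, lie near the background. With the GC and length offset 3 and 4 of the 7 passed, all lower, where 18.4% and 24.5% of tested genes passed in either direction. The median log2 fold change of the 7 was 0.13 with shEZH2#1 and 0.02 with shEZH2#3, against −0.07 and −0.01 over all tested genes. The 3 libraries of a hairpin lay wholly outside the range of the 3 shluc libraries for 5 of the 7 with shEZH2#1 and 4 of the 7 with shEZH2#3, where 37.2% and 52.8% of all tested genes did so. Both comparisons share the shluc libraries.

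KRT8, the type II keratin of simple epithelium, stood at 5050, 3890 and 4560 CPM in the shluc libraries, 5550, 6360 and 6280 under shEZH2#1 and 5310, 7000 and 6590 under shEZH2#3. All 6 hairpin libraries lay above the highest control. The log2 fold change was 0.49 ± 0.16 (SE, 3 libraries a group) with shEZH2#3 (edgeR adjusted p = 0.0228) and 0.43 ± 0.16 with shEZH2#1 (adjusted p = 0.0721). With the GC and length offset the changes were −0.04 (adjusted p = 0.802) and 0.14 (adjusted p = 0.337), so the call with shEZH2#3 was lost. That call also ended without shluc library 2 (adjusted p = 0.0652), shEZH2#3 library 2 (0.103) or shEZH2#3 library 3 (0.0728), each with a log2 fold change of 0.38 to 0.45.

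KRT18, the partner of KRT8, stood at 3190, 2510 and 3310 CPM in the control, 3730, 4080 and 4170 under shEZH2#1 and 4460, 4850 and 4660 under shEZH2#3. The 3 groups did not overlap, and shEZH2#3 was the highest. The log2 fold change was 0.63 ± 0.16 with shEZH2#3 (edgeR adjusted p = 0.00361) and 0.41 ± 0.16 with shEZH2#1 (adjusted p = 0.0724). The difference between the hairpins did not pass (−0.22 ± 0.16, adjusted p = 0.318). With the GC and length offset both changes were 0.01 (adjusted p = 0.964 with shEZH2#1 and 0.93 with shEZH2#3), and the call was lost. The most abundant KRT8 copy, KRT8P3, moved the same way, from 84.3 ± 12 CPM in the control to 123 ± 10.5 and 132 ± 3.82 (SD, n = 3), and its change was likewise lost with the offset (adjusted p = 0.403 with shEZH2#3). The log2 ratio of KRT8 to KRT18 counts was 0.59 ± 0.11 in the control, 0.6 ± 0.03 under shEZH2#1 and 0.43 ± 0.15 under shEZH2#3 (SD, n = 3), with overlapping groups, so that no shift between the partners exceeded the spread.

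KRT19 (minus strand, chr17:41523617-41528308), a type I keratin without the usual tail domain, was the one member whose decrease passed with both hairpins in the fit without the GC and length offset. Its counts were 127, 124 and 215 in the control, 50, 29 and 23 under shEZH2#1 and 26, 22 and 0 under shEZH2#3, or 5.85, 4.94 and 10.3 CPM against 3.02, 1.75 and 1.69 and against 1.49, 1.37 and 0. All 6 hairpin libraries lay below the lowest control. In the library with no count, 3 counts would have been 0.166 CPM. The log2 fold change was −1.69 ± 0.48 with shEZH2#1 (edgeR adjusted p = 0.0179) and −2.89 ± 0.52 with shEZH2#3 (adjusted p = 0.000306). It was as large with the GC and length offset, at −2.12 ± 0.48 (adjusted p = 0.00692) and −3.56 ± 0.53 (adjusted p = 0.000376). The call with shEZH2#3 held under all 21 alternatives in which KRT19 could be tested. With shEZH2#1 it was lost with DESeq2 (adjusted p = 0.258) and without shluc library 3 (0.0677), shEZH2#1 library 2 (0.076) or shEZH2#1 library 3 (0.0859), at log2 fold changes of −1.68 to −1.32. Of the 7 tested members it had the most negative log2 fold change with shEZH2#3.

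KRT7 (plus strand, chr12:52232520-52252186), the other type II keratin of simple epithelium, stood at 1960, 1400 and 1720 CPM in the control, 1660, 1960 and 1930 under shEZH2#1 and 1520, 1780 and 1620 under shEZH2#3. The groups overlapped and neither change passed: 0.13 ± 0.16 (edgeR adjusted p = 0.609) and −0.04 ± 0.16 (adjusted p = 0.839). With the GC and length offset KRT7 was lower with both, by −0.33 ± 0.09 (adjusted p = 0.0227) and −0.70 ± 0.09 (adjusted p = 0.000152). Its direction with shEZH2#1 thus turned with the offset.

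Among the basal and squamous filaments, KRT17 (minus strand, chr17:41619441-41624842), a stress-induced type I keratin, was the abundant one. It stood at 1230, 959 and 1300 CPM in the control, 1290, 1570 and 1490 under shEZH2#1 and 1110, 1300 and 1130 under shEZH2#3. The ranges overlapped, and the changes of 0.32 ± 0.16 (edgeR adjusted p = 0.176) and 0.02 ± 0.16 (adjusted p = 0.921) did not pass. With the offset the values were −0.12 ± 0.08 (adjusted p = 0.373) with shEZH2#1 and −0.63 ± 0.08 (adjusted p = 0.000167) with shEZH2#3.

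KRT5 (minus strand, chr12:52514575-52520687), the basal type II keratin, had 15, 12 and 10 counts in the control, 0, 1 and 5 under shEZH2#1 and 6, 10 and 13 under shEZH2#3. The shEZH2#1 libraries lay below all controls, and those of shEZH2#3 spanned them. The log2 fold change was −2.01 ± 0.82 with shEZH2#1 (edgeR adjusted p = 0.0832) and 0.03 ± 0.64 with shEZH2#3 (adjusted p = 0.971). The difference between the hairpins, −2.04 ± 0.83, missed the threshold (adjusted p = 0.0712). Both comparisons with shEZH2#1 could be tested only with all 3 groups in the fit. With only the 2 groups compared, KRT5 did not pass the filter on low counts in either. At these counts 1 library decides the outcome: without shEZH2#1 library 3 the value was −3.92 (adjusted p = 0.0322), and limma-voom gave −2.44 (adjusted p = 0.046).

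The other squamous filaments were near the limit of counting. KRT14, the partner of KRT5, had 2, 2 and 1 counts in the control, 6, 0 and 3 under shEZH2#1 and 1, 1 and 0 under shEZH2#3. KRT6A had 2, 1 and 4, then 0, 0 and 1, then 1, 2 and 0 counts, and KRT6C, with which it shares most sequence, had no count in any library. KRT13 (minus strand, chr17:41500981-41505705), the keratin of the differentiating esophageal layers, had 0, 2 and 1 counts in the control, 7, 4 and 2 under shEZH2#1 and none under shEZH2#3. With 3 counts a library worth 0.166 to 0.187 CPM under shEZH2#3, a difference for these genes was not detectable at this depth in the filtered fit. When the filter on low counts was dropped, KRT13 passed between the hairpins (edgeR adjusted p = 0.0422), a comparison with a group at 0 for which no fold is given.

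VIM, at chr10:17228259-17237593 on the plus strand, stood at 462, 505 and 464 CPM in the control, 354, 333 and 347 under shEZH2#1 and 369, 431 and 458 under shEZH2#3. All 6 hairpin libraries lay below the lowest control, although shEZH2#3 library 3 was close to it. The log2 fold change was −0.47 ± 0.15 with shEZH2#1 (edgeR adjusted p = 0.0295) and −0.19 ± 0.15 with shEZH2#3 (adjusted p = 0.303). With the GC and length offset VIM was lower with both hairpins, by −0.53 ± 0.11 (adjusted p = 0.00364) and −0.45 ± 0.11 (adjusted p = 0.00692). The call with shEZH2#1 ended under DESeq2's size factors in edgeR (RLE scaling, adjusted p = 0.052), and without shluc library 1 (0.0544), shEZH2#1 library 2 (0.129) or shEZH2#1 library 3 (0.105), each at −0.49 to −0.43. It was also lost with the replicate number as a block (−0.47, adjusted p = 0.0659). Without the 2 libraries that stood apart, the change with shEZH2#3 was −0.06 (adjusted p = 0.754).

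**Figure D3:**
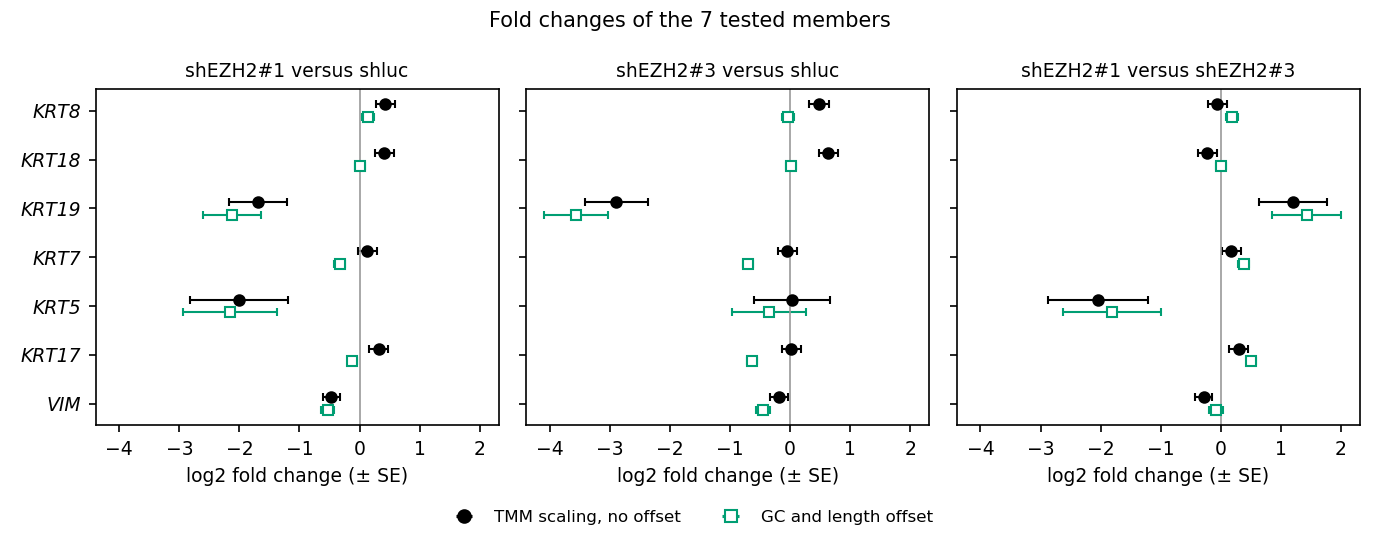
log2 fold change with its standard error for the 7 tested members in the 3 comparisons, from the fit with TMM scaling alone (filled) and with the GC and length offset (open). KRT19 lies left of 0 against shluc in both fits, at −1.69 and −2.89 without the offset; against shluc, KRT8 and KRT18 lie right of 0 without the offset and at −0.04 to 0.14 with it, and KRT7, KRT17 and VIM lie further left with it than without it.

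Within each library VIM was set against KRT18, as a mesenchymal against a simple epithelial filament. The log2 ratio of VIM to KRT18 counts was −2.79, −2.31 and −2.83 in the control, −3.40, −3.62 and −3.59 under shEZH2#1 and −3.60, −3.49 and −3.35 under shEZH2#3. All 6 hairpin libraries lay below the lowest control. The means were −2.65 ± 0.29, −3.53 ± 0.12 and −3.48 ± 0.12 (SD, n = 3), and −2.89, −3.42 and −3.35 with the GC and length offset. The ratio of VIM to KRT5, a gene with few counts, overlapped between shluc and each hairpin. KRT18 also does not stand for every simple epithelial filament. With the offset, VIM fell less than KRT7 with shEZH2#3 (−0.45 against −0.70) and more with shEZH2#1 (−0.53 against −0.33). No test of these ratios was made. By counts, the 4 simple epithelial members made up 84.2% to 85.8% of the 10 members' CPM in the control, 86.7% to 87.1% under shEZH2#1 and 88.4% to 89% under shEZH2#3, while VIM made up 3.88% to 5.45%, 2.32% to 2.81% and 2.81% to 3.17%. The basal and squamous share, nearly all KRT17, was 10.3% to 11.5%, 10.3% to 11% and 7.83% to 8.7%. All these shares were taken without the GC and length offset. With the offset no tested member passed as higher than in shluc, KRT8 and KRT18 included.

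**Figure D4:**
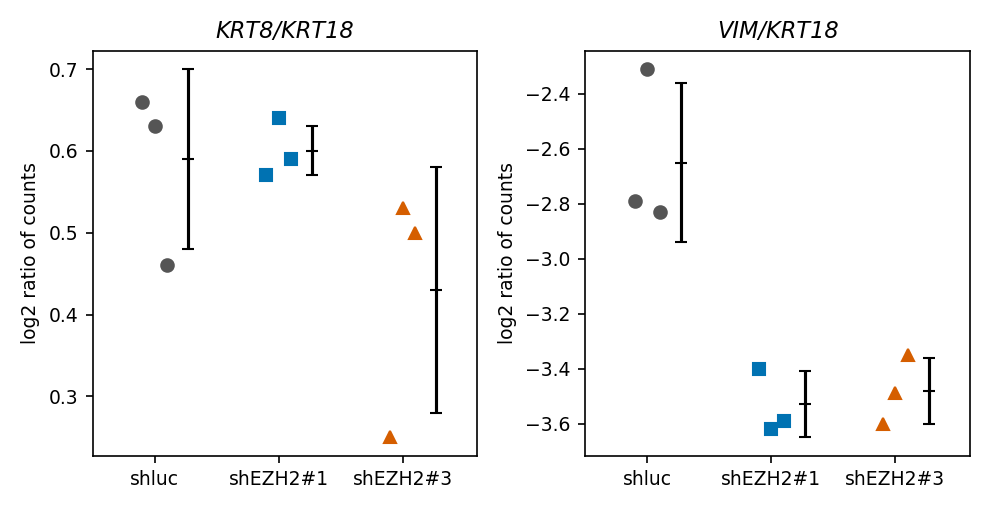
log2 ratio of KRT8 to KRT18 counts (left) and of VIM to KRT18 counts (right) in each library, with the mean and SD of each group beside its points; the axes do not start at 0. The KRT8 to KRT18 ratios overlap between groups (means 0.59, 0.6 and 0.43), while all 6 hairpin libraries have a lower VIM to KRT18 ratio than the 3 shluc libraries.

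Between the hairpins, 0 of the 7 tested members passed with edgeR, where 25% of tested genes did, 9.46% higher and 15.5% lower; 2 members (KRT19 and KRT5) had an unadjusted p below 0.05, DESeq2 called 0 and limma-voom 1 (KRT5). The 3 libraries of each hairpin did not overlap for KRT18, KRT19 and VIM, 3 of the 7, where 42.9% of all tested genes did not. KRT19 was 1.20 ± 0.56 higher on the log2 scale with shEZH2#1 than with shEZH2#3 (edgeR adjusted p = 0.125), and this value rests on single libraries: it was 1.71 (adjusted p = 0.0325) without shEZH2#3 library 1, 0.60 (adjusted p = 0.29) without shEZH2#3 library 3, which had no count, and 0.88 (adjusted p = 0.413) without shEZH2#1 library 1. Without both libraries that stood apart, KRT19 (1.71, adjusted p = 0.0283) and VIM (−0.37, adjusted p = 0.0175) passed. With the GC and length offset, under which 28.1% of tested genes passed, KRT7 (0.38 ± 0.09, adjusted p = 0.00715) and KRT17 (0.51 ± 0.08, adjusted p = 0.00045) were higher with shEZH2#1.

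Counts of genes in the lists below stand against the 19% and 44.2% of all tested genes that passed with shEZH2#1 and shEZH2#3, or 18.4% and 24.5% with the offset. The keratins outside the 10 were mostly silent. Of 22 other type II keratins 4 could be tested; with shEZH2#3 1 rose and with shEZH2#1 none did, and the median log2 fold change of the 4 was −0.08 with shEZH2#1 and −0.32 with shEZH2#3. The one that rose was KRT80, a widely expressed type II keratin, at 247 ± 39 CPM in the control, 271 ± 29.7 under shEZH2#1 and 359 ± 45.3 under shEZH2#3 (SD, n = 3), with a log2 fold change of 0.54 (edgeR adjusted p = 0.0112) that fell to 0.17 (adjusted p = 0.218) with the offset. KRT81, KRT86 and KRT4 averaged at most 1.15 CPM in any group, and of them KRT81 passed, lower with shEZH2#3, with the offset (−1.29, adjusted p = 0.0269). Of 24 other type I keratins 5 could be tested, and 2 rose with shEZH2#1, KRT15 and KRT16, and none with shEZH2#3 (medians 0.80 and −0.72). KRT15, a basal type I keratin, went from 1.54 ± 0.158 to 6.34 ± 0.943 CPM (log2 fold change 2.04 ± 0.27, adjusted p = 6.48e-05), against 0.927 ± 0.181 under shEZH2#3. KRT16, the usual partner of KRT6A, went from 2.48 ± 0.601 to 7.87 ± 1.03 CPM (1.67 ± 0.25, adjusted p = 0.000242), against 2.83 ± 0.632 under shEZH2#3. Both also passed with the offset (1.98 and 1.27), and both differed between the hairpins (2.76, adjusted p = 2.13e-06, and 1.48, adjusted p = 0.000269). With the offset KRT15 (−1.03, adjusted p = 0.00921) and the hair keratin KRT34 (−1.02, adjusted p = 0.0292) were lower with shEZH2#3, where neither passed without it (adjusted p = 0.0579 and 0.0881). KRT10, a keratin of the suprabasal epidermis, passed against shluc in neither fit.

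Among the proteins that tie filaments to junctions, 10 of 12 linker genes could be tested: 2 rose and 1 fell with shEZH2#1, while under shEZH2#3 5 rose and 5 fell. With the offset 2 were higher and 1 lower with shEZH2#1, and 4 higher and 2 lower with shEZH2#3. The median log2 fold change of the 10 was −0.02 and −0.01, as against −0.07 and −0.01 over all tested genes. Desmoplakin (DSP), which anchors keratin to desmosomes, fell with both hairpins, from 88.4 ± 28.6 CPM to 56.1 ± 3.69 and 54.1 ± 8.23 (SD, n = 3; log2 fold changes −0.66 and −0.71, edgeR adjusted p = 0.0193 and 0.00564). With the offset its change was −0.39 (adjusted p = 0.0515) with shEZH2#1 and −0.43 (adjusted p = 0.0277) with shEZH2#3. Envoplakin (EVPL) and plakophilin 3 (PKP3) rose with both: EVPL from 74.3 to 108 and 147 CPM, and PKP3 from 304 to 533 and 431. With the offset, EVPL passed only with shEZH2#3 (0.39, adjusted p = 0.00704) and PKP3 only with shEZH2#1 (0.37, adjusted p = 0.0084). Of 9 tested filament genes beyond keratins, nuclear lamins included, 2 fell with shEZH2#1, while 1 rose and 4 fell with shEZH2#3 (medians −0.44 and −0.48). With the offset 4 and 6 were lower. INA, a neuronal filament, was the one that fell with both without the offset, from 9.42 to 6.04 and 5.15 CPM. With the offset its changes were −0.51 and −0.84 (edgeR adjusted p = 0.0327 and 0.0015). NEFH (−1.06 and −0.92), NES (−0.78 and −1.28) and LMNB2 (−0.47 and −0.60) then also passed as lower with both. These last genes were named after their values were seen.

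Of 11 tested squamous factors, 1 fell with shEZH2#1 and 1, the splicing factor ESRP2, rose with shEZH2#3 (0.69, edgeR adjusted p = 0.00145; 0.18, adjusted p = 0.23 with the offset). The median log2 fold change of the 11 was −0.25 and −0.02. With the offset 3 were lower with shEZH2#1 and 2 with shEZH2#3. NOTCH1 was among those 3 (−0.58, adjusted p = 0.00681) and passed with neither hairpin without the offset (adjusted p = 0.305 and 0.15). Of the 7 tested factors listed as columnar, none passed with shEZH2#1. With shEZH2#3 2 were higher and 1 lower, with and without the offset (medians without it −0.31 and −0.23). The 2 that rose were ELF3 (332 ± 39 to 597 ± 69 CPM, log2 fold change 0.85, adjusted p = 0.000384) and HNF4A (10.3 ± 1.36 to 27.9 ± 2.83 CPM, 1.43, adjusted p = 7.73e-06). Both passed with the offset (0.54 and 1.35) and differed between the hairpins (adjusted p = 0.000127 and 9.7e-06). Of 10 tested genes of the epithelial-mesenchymal transition, 1 rose and 1 fell with shEZH2#1. With shEZH2#3 3 rose and 4 fell, or 1 and 2 with the offset. The medians without it were −0.23 and −0.66. The 10 include the epithelial genes CDH1 and EPCAM beside mesenchymal ones, so these counts and medians give no direction of the transition. Fibronectin (FN1), often raised together with vimentin in that transition, went from 121 ± 25.3 CPM to 308 ± 38.6 and 282 ± 31.3 (SD, n = 3; log2 fold changes 1.35 and 1.22, adjusted p = 6.48e-05 and 3.76e-05; 1.56 and 1.37 with the offset, both passing), while the changes of VIM were −0.47 and −0.19. The epithelial adhesion genes CDH1 (5.18, 5.23 and 2.61 CPM) and EPCAM (3.75, 2.02 and 1.03 CPM) were low in all groups and fell with shEZH2#3 (−0.99, adjusted p = 0.00149, and −1.87, adjusted p = 0.000461). Both passed with the offset (−0.76 and −1.65). They moved opposite to the calls of KRT8 and KRT18 without the offset, and were chosen for mention after their values were seen.

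Markers of other cell types were not all low: in each group the fibroblast sum exceeded that of the squamous markers (5.86 to 8.95 CPM in the control). Some sums differed between the groups, and no test of a sum was made. The 8 fibroblast markers summed to 59.5 to 68.2 CPM in the control, 53.8 to 62.4 under shEZH2#1 and 79.5 to 118 under shEZH2#3, with 2 to 3 of the 8 at 0 in a group. Most of each sum was collagen COL1A1 (46.7, 26.1 and 67.4 CPM on average). With the offset COL1A1 was lower with shEZH2#1 (−1.11, edgeR adjusted p = 8.88e-05) and did not pass with shEZH2#3 (0.01, adjusted p = 0.966). The matrix gene DCN rose with both hairpins (from 11.3 to 25 and 18.5 CPM, and by 1.48 and 1.37 with the offset, both passing). The 3 endothelial markers found summed to 13.8 to 19.8, 7.97 to 8.28 and 28.4 to 32.6 CPM, nearly all CDH5, and VWF averaged at most 1.14 CPM. With the offset CDH5 was lower with shEZH2#1 (−1.19, edgeR adjusted p = 0.000131) and higher with shEZH2#3 (0.55, adjusted p = 0.00926). The 6 leukocyte markers summed to 18.5 to 22.1, 16.4 to 20.4 and 25.4 to 30.8 CPM, overlapping between shluc and shEZH2#1, and were mostly the lysosomal CD68, with the pan-leukocyte PTPRC at 0 in all libraries. The 6 intestinal markers summed to 3.51 to 4.97, 2.66 to 4.48 and 3.42 to 5.49 CPM, with all groups overlapping. The part of these genes in the VIM values was not tested; in bulk RNA, fewer cells of a type and less RNA per cell cannot be told apart.

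Over the 9 libraries KRT8 and KRT18 had a Pearson correlation of log2 CPM of 0.91, KRT7 and KRT17 of 0.87, KRT8 and VIM of −0.52, and KRT19 and KRT18 of −0.69. Among tested genes averaging at least 10 CPM, those most like KRT18 were NR1H3 (0.997), ABTB1 (0.996) and SH3BP5L (0.995), and those most like VIM were ARF4 (0.978), GORASP2 (0.975) and GSDME (0.965). For KRT5 they were SEMA4F (0.952), FARP1 (0.932) and ATOH8 (0.927), from very few KRT5 counts. These are descriptions over 9 libraries in 3 groups that share the group differences and the GC gradient.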

How the data were processed

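Poly(A) RNA of 9 irradiated KYSE180 libraries was sequenced. The authors deposited estimated counts for each Ensembl gene; per the submitters' processing notes, fastp, HISAT2 and StringTie were used with GRCh38 (hg38), and the labels state neither strand nor multi-mapping settings. The series table and the single-library files held the same values. Between 14.65% and 18.55% of nonzero values had decimals, and all were rounded to whole numbers. The naming table named 51996 of 57905 genes and GENCODE 29 a further 342; 5567 stayed without a name, 2 of which took 5.97% to 22.58% of counts.

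All 9 libraries entered 1 fit with edgeR 4.0.16 in R 4.3.3 (TMM scaling, filterByExpr, quasi-likelihood test, Benjamini-Hochberg adjustment over 13252 genes, threshold 0.05, no minimum fold). CPM are TMM-scaled. The standard error is the absolute log2 fold change from the unshrunk coefficients, divided by the square root of its F statistic. The printed log2 fold changes are the shrunk ones. The GC and length offset is a loess smooth (span 0.3) of each library's log2 counts on GC content, then on log2 length, of the principal transcript. Ratios used a pseudocount of 0.5 counts, and correlations a prior count of 2. DESeq2 1.42.0 and limma 3.58.1 were alternatives. The fit was also run on counts simulated with a single common dispersion and no GC gradient. That run cannot show how the fit deals with the gradient in these libraries. Within groups, no library was a copy of another.

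The members and gene lists were chosen with earlier results of these data known. Besides the 10 members, the text names, per list, up to 4 genes called in the same direction with both hairpins (otherwise the 2 most abundant), the 4 most abundant other keratins of each type, and the 3 highest pseudogenes, of which KRT8P10 averaged 0.712, 1.77 and 2.9 CPM; a few others are named as markers or as chosen after their values were seen. A gene that this rule names and a sequence pair are not reported here.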

Additional observations from a re-analysis of the deposited data

How the results depend on the processing

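For single members, 22 alternatives were run per comparison, of which leaving out shluc library 2 with shEZH2#3 library 1 was chosen after seeing the data. Of the resulting values 128, 117 and 135 kept direction and side of the threshold with shEZH2#1, with shEZH2#3 and between the hairpins; 10, 10 and 0 lost a call, 11, 7 and 11 gained one, and 4, 22 and 5 changed sign, of which 2, 4 and 0 also lost or gained a call. Counts of 5 or fewer for KRT5, KRT14, KRT6A and KRT13 in many libraries limit what depth allows.

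With shEZH2#1, 2523 genes and 2 members passed. The members were 1 with RLE scaling, at least 1 CPM in all libraries, the replicate block or a minimum log2 fold of 1 (494 genes), and 4 with upper quartile scaling or without the 2 abundant unnamed genes. Leaving out 1 library gave 1159 to 3067 genes (1550 without shluc library 2, 1344 without shEZH2#1 library 2, 1159 without shEZH2#1 library 3) and 0 to 2 members. With the offset KRT7 turned to −0.33 and KRT17 to −0.12, also with the replicate block added. The split of 1478 higher and 1045 lower genes became 1052 and 1383 with the offset, and 1707 and 779 without the 2 unnamed genes.

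With shEZH2#3, 5861 genes and 3 members passed. A minimum log2 fold of 1 left 1543 genes and 1 member, the offset 3253 genes and, with the replicate block, 3015; leaving out 1 library gave 4251 to 5824 genes and 2 to 3 members. The offset turned KRT8 to −0.04, KRT5 to −0.35 (−0.43 with the block) and KRT17 to −0.63. Values near 0 changed sign: KRT5 to −0.14 with upper quartile scaling, 0.00 without a filter, −0.04 with the block and −0.19 to 0.29 over the libraries left out; KRT17 to −0.14, −0.01 and −0.03 with upper quartile scaling, no filter and the stricter filter, −0.11 to 0.11 over the libraries left out and −0.06 without both libraries; KRT7 from −0.17 to 0.07 over the libraries left out. Upper quartile scaling moved the median of all genes to −0.18 and the split of 3237 higher and 2624 lower genes to 2421 and 3720; VIM then passed (−0.36, adjusted p = 0.0281) and KRT8 did not (0.32, adjusted p = 0.0589).

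Between the hairpins, 3311 genes and 0 members passed. There were 918 genes with a minimum log2 fold of 1 and 1956 to 3940 with a library left out (1956 without shEZH2#1 library 1). The members were 1 with upper quartile scaling, limma-voom, or with shEZH2#1 library 3 or shEZH2#3 library 1 left out, and 2 without a filter, with the offset (with or without the block) and without both libraries, where KRT19 (1.71, adjusted p = 0.0283) and VIM (−0.37, adjusted p = 0.0175) passed. KRT8 turned to 0.11 with upper quartile scaling, 0.18 with the offset, 0.19 with the offset and block, and ranged from −0.16 to 0.03 over the libraries left out. The split of 1254 higher and 2057 lower became 2207 and 1404 with upper quartile scaling. The cause was not tested for any of these.

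Same-numbered libraries did not deviate together (correlations of −0.12 to 0.08, against −0.16 to 0.16 for libraries of different numbers). These values gave no sign that replicate numbers pair the libraries, but a weak pairing could go unseen in them. With the number as a block, 2208, 5482 and 2938 genes and 1, 3 and 0 members passed. Per-length levels moved beyond the SD in 22 of 30 values with the longest or principal transcript, and CPM without TMM in 10 of 30.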
